A study of Homo sapiens with 6 samples.

Results

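The genes described here encode the translation initiation and elongation factors, the proteins that bring ribosomes to mRNA, find the start codon and move the ribosome along the message. They were taken from the count table by symbol, as every row beginning with EIF1 to EIF6 or with EEF1 or EEF2, leaving out the kinases named EIF2AK and EEF2K and symbols ending in P and a number. This rule found 62 of the 34811 genes in the table. It also left out the EIF4EBP genes, which are therefore given as neighbours of the pathway, and it took in 9 genes that are not translation factors in the strict sense or have another main role. These are EIF2C1 to EIF2C4 (older symbols of the Argonaute genes AGO1 to AGO4), EIF4A3 of the exon junction complex, EIF1AD, EIF2A, and the antisense RNAs EIF1AX-AS1 and EIF2B5-AS1.

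RNA-seq was performed on OVCAR-3, an established human ovarian carcinoma cell line, in 3 OV3/SCR and 3 OV3/COX1KD libraries. OV3/SCR cells carried a scrambled shRNA and OV3/COX1KD cells an shRNA against COX-1, both on the pRS HuSH-29 plasmid, and both were stable clones selected with puromycin and grown in RPMI-1640 with serum. The libraries of each condition came from independent passages of 1 clone, so clone and shRNA cannot be told apart, and p-values measure the spread between passages. The comparison asks which transcripts differed when the gene for COX-1 was knocked down.

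Library totals lay between 25291505 and 27391538 counts, and 3 counts, the least taken as detectable, corresponded to 0.113 to 0.120 CPM (read counts scaled to equal library sizes) by counting error alone. PTGS1, which encodes COX-1, had 713, 658 and 641 counts in OV3/SCR and 456, 486 and 501 in OV3/COX1KD (log2 fold change -0.45 ± 0.057 SE, edgeR FDR = 1.3e-06). All 7 epithelial marker genes listed were detected, while the summed level of 4 leukocyte markers was at most 1.15 CPM and that of 2 endothelial markers at most 1.95 CPM. The 6 fibroblast markers summed to 10.9 to 11.6 CPM in OV3/SCR and 6.72 to 7.43 CPM in OV3/COX1KD, most of it from COL1A1. Their part in the results was not tested. OV3/COX1KD replicate 2 stood apart from the other libraries of its condition, since its chi-square against them, over the degrees of freedom, was 4.44 and 5.74, where the remaining pairs within a condition gave 1.74 to 2.91. Its deviations from the condition mean also fell with transcript length (r = -0.301 across 12722 genes, which are not independent replicates).

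Translation begins when eIF2, loaded with GTP and the initiator tRNA, joins eIF1, eIF1A, eIF5 and the large scaffold eIF3 on the small ribosomal subunit. The eIF4F complex, made of the cap-binding protein eIF4E, the scaffold eIF4G and the helicase eIF4A, recruits that assembly to the capped mRNA, with eIF4B and eIF4H stimulating the helicase. After subunit joining, eEF1A delivers aminoacyl-tRNAs, the eEF1B subunits reload eEF1A with GTP, eEF2 moves the ribosome by a codon, and eIF5A relieves stalling. eIF2B reloads eIF2 with GTP between rounds and is the step blocked by the integrated stress response.

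OV3/COX1KD cells had more transcript for the elongation factors eEF1A and eEF2, for EIF4B and for 8 eIF3 subunits, and less transcript for 3 of 5 eIF2B subunits, the start codon factors EIF5, EIF1B and EIF1AX, EIF5A2 and EIF6. Of the 62 genes 57 passed edgeR's filter on low counts, and 33 of them (57.9%) had an edgeR FDR under 0.01, 19 higher and 14 lower in OV3/COX1KD. Over all 17309 genes tested 47.9% passed the same threshold, 25.8% higher and 22.1% lower, so a large share of calls was general in this comparison. Without OV3/COX1KD replicate 2 the genes called numbered 34, 20 higher and 14 lower. Abundant genes were called more often, and among the 43 translation factor genes whose mean log2 CPM reached 5 the share was 65.1% (18 higher and 10 lower), against 67.1% of all genes at that level (40.3% higher and 26.9% lower). By role the share called was 69.2% for eIF3, 60% for eIF2B, 66.7% for eEF1 and 66.7% for the start codon factors. It was 63.6% around the cap and 33.3% for eIF2. Apart from eIF2 these shares lie near 67.1%, so the number of calls in a role is not unusual by itself. No role was tested as a set. The groups did not overlap in 39 of the 57 genes, and in 63.2% of all genes tested. The median log2 fold change was 0.02 for the 57 genes and -0.01 for all genes tested, so the set as a whole did not stand away from the rest, and its members moved in opposite directions. Scaling by total counts in place of TMM factors moved the median of all genes to -0.087 and gave 15 higher and 20 lower among the 57. The fold changes below are relative to the TMM scale.

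Changes were small for most of these genes. Only 6 of the 57 passed the FDR threshold with a log2 fold change beyond 0.5, and all of them were higher in OV3/COX1KD, namely EIF4E1B, EIF3E, EEF1A1, EIF3H, EEF1A2 and EIF4B. Over all genes tested 19.9% passed that pair of limits, 9.87% higher and 10% lower. Members with very many counts were among those that rose, and the summed level of the 62 genes went from 15364 ± 37.9 CPM to 18073 ± 199 CPM (SD, n = 3), a 1.18-fold higher level. Their share of all counts was 1.58% in OV3/SCR and 1.76% in OV3/COX1KD. In bulk RNA a change in how many cells express a gene and a change in RNA per cell cannot be told apart.

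**Figure D1:**
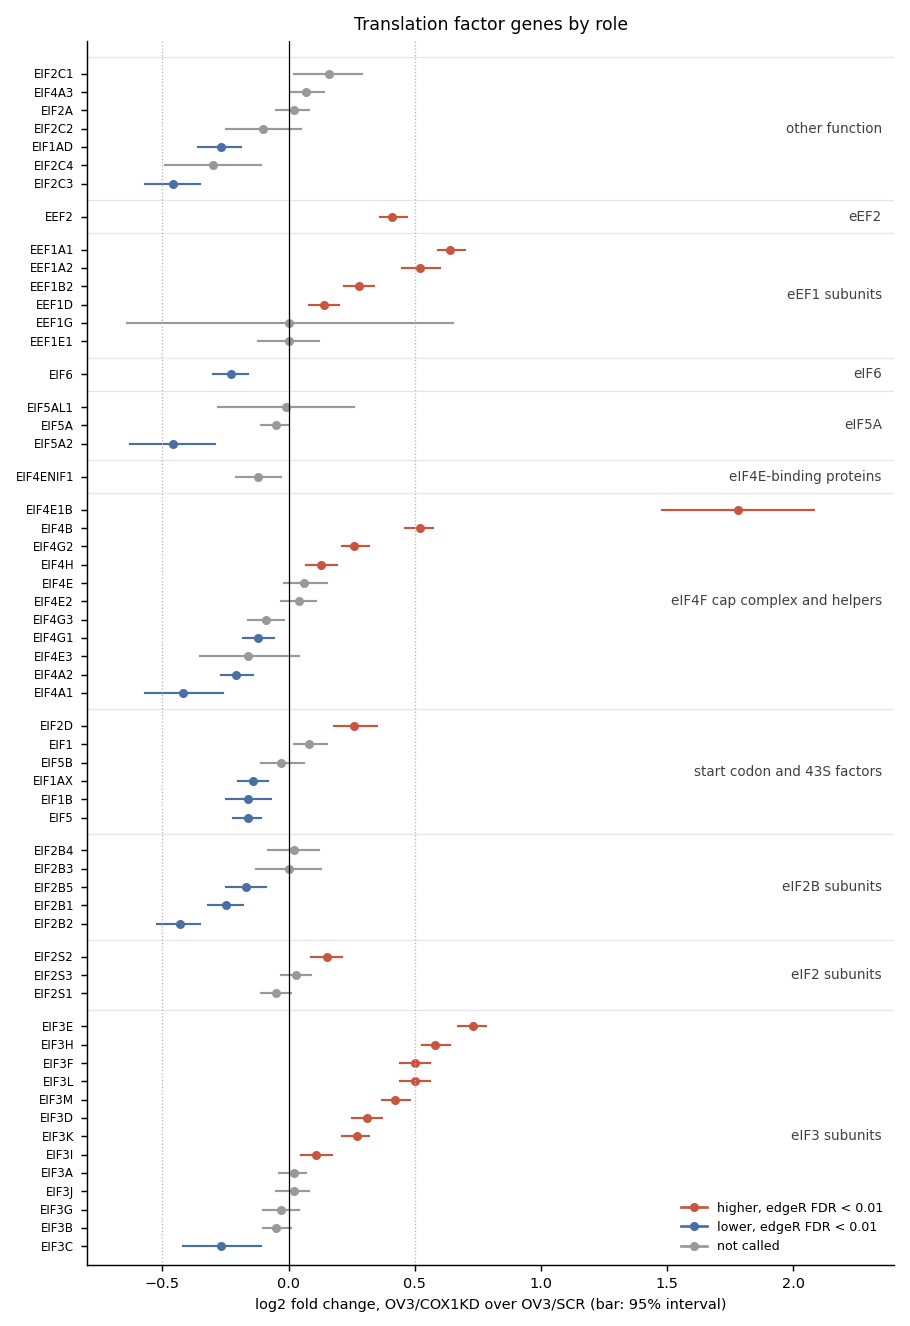
Log2 fold change of OV3/COX1KD over OV3/SCR (horizontal axis) for the 57 translation factor genes tested, grouped by role, with bars for the 95% interval (normal, from the SE) and dotted lines at a log2 fold change of 0.5 in either direction. EEF2, 4 of the 6 eEF1 genes and most eIF3 genes lie to the right of 0, EEF1E1 and EEF1G at 0, and the called eIF2B, eIF5A and eIF6 genes to the left, with EIF4E1B alone beyond 1.

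A feature seen in the genes after their fold changes were known was the base sequence at the annotated transcription start. Many mRNAs of the translation machinery begin with a C followed by a run of pyrimidines, known as a terminal oligopyrimidine (TOP) tract, through which mTOR controls their translation. RefSeq promoter windows (GRCh38.p14, from 250 bases before to 50 after the start) were matched for 52 of the 62 genes. In 13 of the 52 (25%) the start was a C followed by at least 4 bases each C or T, against 5.14% of the 27305 genes with a window. The 12 of these 13 genes that were tested are printed first, 25 bases before the start and 15 from it, with the pyrimidine run from the start in capitals. EIF2B2, EIF5A2 and EIF6, which are lower in OV3/COX1KD and have another start, follow as examples with no capitals. They were picked among the genes that fell, and genes with another start that rose are not printed, so the printed set is no comparison. Where several starts were annotated for a gene, the one with the longest run is shown.
EEF1A1 (chr6:73521018-73521057, minus strand): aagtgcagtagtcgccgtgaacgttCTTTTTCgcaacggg
EEF2 (chr19:3985449-3985488, minus strand): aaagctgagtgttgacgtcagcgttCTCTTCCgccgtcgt
EEF1B2 (chr2:206159870-206159909, plus strand): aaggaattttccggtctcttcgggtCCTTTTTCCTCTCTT
EIF4B (chr12:53006431-53006470, plus strand): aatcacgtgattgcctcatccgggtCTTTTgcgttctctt
EIF3D (chr22:36529152-36529191, minus strand): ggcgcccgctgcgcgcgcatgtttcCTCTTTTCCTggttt
EIF3F (chr11:7987312-7987351, plus strand): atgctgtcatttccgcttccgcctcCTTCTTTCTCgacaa
EIF3K (chr19:38619163-38619202, plus strand): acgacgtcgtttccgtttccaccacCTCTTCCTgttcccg
EIF3M (chr11:32583806-32583845, plus strand): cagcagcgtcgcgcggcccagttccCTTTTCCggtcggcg
EIF2D (chr1:206612451-206612490, minus strand): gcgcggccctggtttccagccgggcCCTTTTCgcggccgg
EIF2S3 (chrX:24054931-24054970, plus strand): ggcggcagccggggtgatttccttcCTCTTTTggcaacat
EIF2A (chr3:150546762-150546801, plus strand): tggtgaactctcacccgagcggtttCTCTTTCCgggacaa
EIF4A2 (chr3:186783552-186783591, plus strand): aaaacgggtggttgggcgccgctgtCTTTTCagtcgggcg
EIF2B2 (chr14:75002896-75002935, plus strand): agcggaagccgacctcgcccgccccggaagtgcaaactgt
EIF5A2 (chr3:170908623-170908662, minus strand): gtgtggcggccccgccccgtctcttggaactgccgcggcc
EIF6 (chr20:35284703-35284742, minus strand): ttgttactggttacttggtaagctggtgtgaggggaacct

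Of the 12 tested genes with such a start 9 rose (EEF1A1, EIF4B, EIF3F, EIF3M, EEF2, EIF3D, EEF1B2, EIF3K and EIF2D), EIF4A2 fell, and EIF2S3 and EIF2A had log2 fold changes of 0.03 and 0.02 that did not pass the threshold. Their median log2 fold change was 0.30. Of the 36 tested genes with a window and another start 4 rose (EIF4E1B, EIF4G2, EIF4H and EIF3I) and 13 fell, with a median of -0.05. Those 13 include EIF2C3 and EIF1AD, which have another main role, and EIF4A1 and EIF3C, whose counts are limited as described below. The 9 tested genes with no window are in neither class, and they held 6 of the 19 higher calls (EIF3E, EIF3H, EIF3L, EEF1A2, EEF1D and EIF2S2) and 0 of the 14 lower calls, with EIF3A, EIF3G and EIF2C2 not called. The same classes over all genes tested gave 40.3% higher and 19.4% lower for 831 genes with the C start (median 0.12), and 27.9% higher and 23.9% lower for 10928 genes with another start (median 0.00). Of 48 cytosolic ribosomal protein genes with the C start 46 were higher and 2 lower (median 0.40), so rises of genes with this start were not particular to the translation factor genes. Ribosomal protein genes with another start were not counted, so these 48 do not show a contrast between the starts. With the translation factor and cytosolic ribosomal protein genes taken out, 771 genes with the C start had 36.3% higher and 20.5% lower calls. The classes also differed in abundance, with a median mean log2 CPM of 8.54 for the 12 genes and 5.96 for the 36. No test was made, since the feature was noticed after the fold changes, and a run of these letters at an annotated start is a description and not evidence of a working TOP tract. The letters CACGTG, looked for on both strands (the motif is its own reverse complement), were found in the 300-base windows of 10 of the 52 genes (19.2%) and of 8.77% of all genes with a window. Among those 10 genes 4 rose (EIF4B, EIF3F, EIF3K and EIF4H) and 3 fell (EIF1B, EIF4G1 and EIF5A2). EIF4B, EIF3F and EIF3K also had the C start. Of all 57 tested translation factor genes 33.3% were higher and 24.6% lower. Calls over all genes with CACGTG were not counted, so nothing is read from these numbers.

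**Figure D2:**
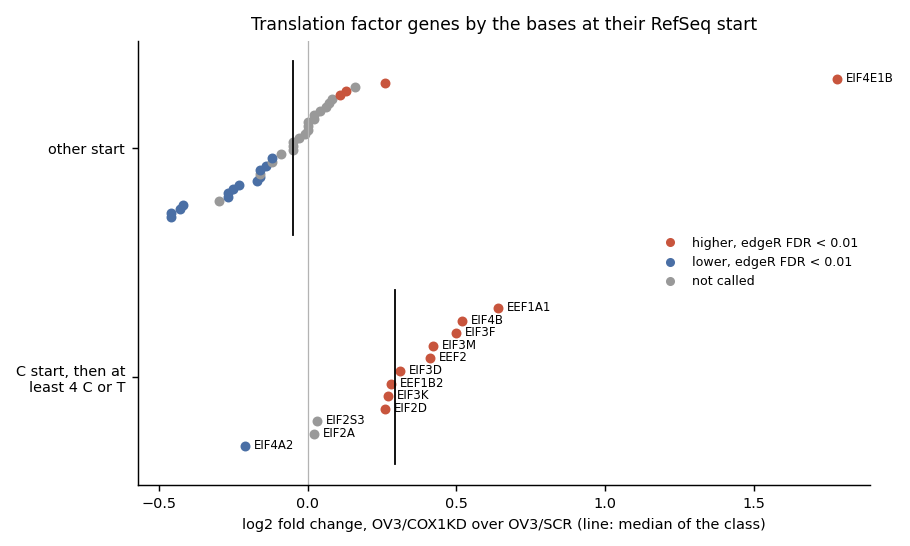
Log2 fold change of OV3/COX1KD over OV3/SCR (horizontal axis) of the tested translation factor genes with a RefSeq window, in rows for the 12 genes with a C start followed by at least 4 pyrimidines and the 36 with another start, where each point is a gene and the vertical line the class median. The median is 0.30 in the C start row and -0.05 in the other, where EIF4E1B is the far point on the right.

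eIF3 is the largest initiation factor and holds the small subunit, the initiator tRNA complex and eIF4G together. Its 13 tested genes had 8 higher and 1 lower call, and their summed level was 4019, 3972 and 4006 CPM in the OV3/SCR libraries and 5052, 5045 and 5088 CPM in OV3/COX1KD, a 1.27-fold difference with no overlap. A large part of that difference came from EIF3E and EIF3H, both on chromosome 8. EIF3E had TMM-normalised levels of 489, 468 and 484 CPM in OV3/SCR and 787, 795 and 804 CPM in OV3/COX1KD (log2 fold change 0.73 ± 0.028 SE, edgeR FDR = 3.8e-14). EIF3H had 436, 432 and 430.3 CPM against 643, 642 and 659.7 CPM (0.58 ± 0.028, edgeR FDR = 6.7e-13). Both genes were apart between the conditions in all libraries, by far more than the spread between passages.

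The rise was unequal over the complex. The genes for subunits d, e, f, h, k, l and m all rose, 7 of 7, with log2 fold changes of 0.27 to 0.73 and a median of 0.50. EIF3F went from 158 ± 3.4 to 224 ± 5.28 CPM, EIF3L from 199 ± 1.02 to 281 ± 10.7 CPM and EIF3M from 505 ± 7.02 to 678 ± 4.02 CPM (SD, n = 3). EIF3D (log2 fold change 0.31) and EIF3K (0.27) rose less. Subunits a, b, c, g and i, the ones that budding yeast eIF3 also has, gave 1 higher call (EIF3I, 0.11, lost in 9 of 14 alternatives) and 1 lower call (EIF3C, -0.27), with a median of -0.03. EIF3A, the largest subunit, had 456, 465 and 475 CPM in OV3/SCR and 476, 462 and 475 CPM in OV3/COX1KD, and the groups overlapped. EIF3J, a loosely bound subunit, had 159 ± 0.354 and 161 ± 6.52 CPM. This split of the subunits was made after their values were seen and was not tested.

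EIF3C and its near-identical copy EIF3CL share 98.8% of the 50-base stretches of the EIF3C transcript, so how many of their reads were assigned to either gene is uncertain. EIF3C held 273 to 307 counts in OV3/SCR and 230 to 247 in OV3/COX1KD. At 3.85 CPM per kb in OV3/SCR its level lay far under that of EIF3F, the next lowest subunit gene, at 22.8 CPM per kb, and its FDR of 0.00765 (edgeR) rose to as much as 0.0405 among the alternatives. Part of the EIF3L transcript (56.6% of its 50-base stretches) also occurs in other annotated genes, its pseudogenes among them.

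EIF3E (GRCh37 chr8:109175016-109455725) and EIF3H (GRCh37 chr8:117654369-117779164) both lie on the long arm of chromosome 8, and genes near them rose as well. All 7 tested neighbours within 2 Mb of EIF3E whose mean log2 CPM reached 1 were above 0 (median log2 fold change 0.42), and 6 of the 7 around EIF3H were above 0 (median 0.61). DEPTOR and PABPC1, described with the regulators, are on chromosome 8 too. Of the translation factor genes on chromosome 8, 4 were tested and 3 rose. EIF2C2 did not, with a log2 fold change of -0.10 (not called), while its 10 neighbours had a median of 0.35. Outside chromosome 8 the other 11 tested eIF3 genes had 6 higher calls and 1 lower, with a median of 0.11, and the neighbours of EIF3F, EIF3L, EIF3M, EIF3D and EIF3K had medians between -0.13 and 0.09. A difference in gene copy between the clones was not tested.

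**Figure D3:**
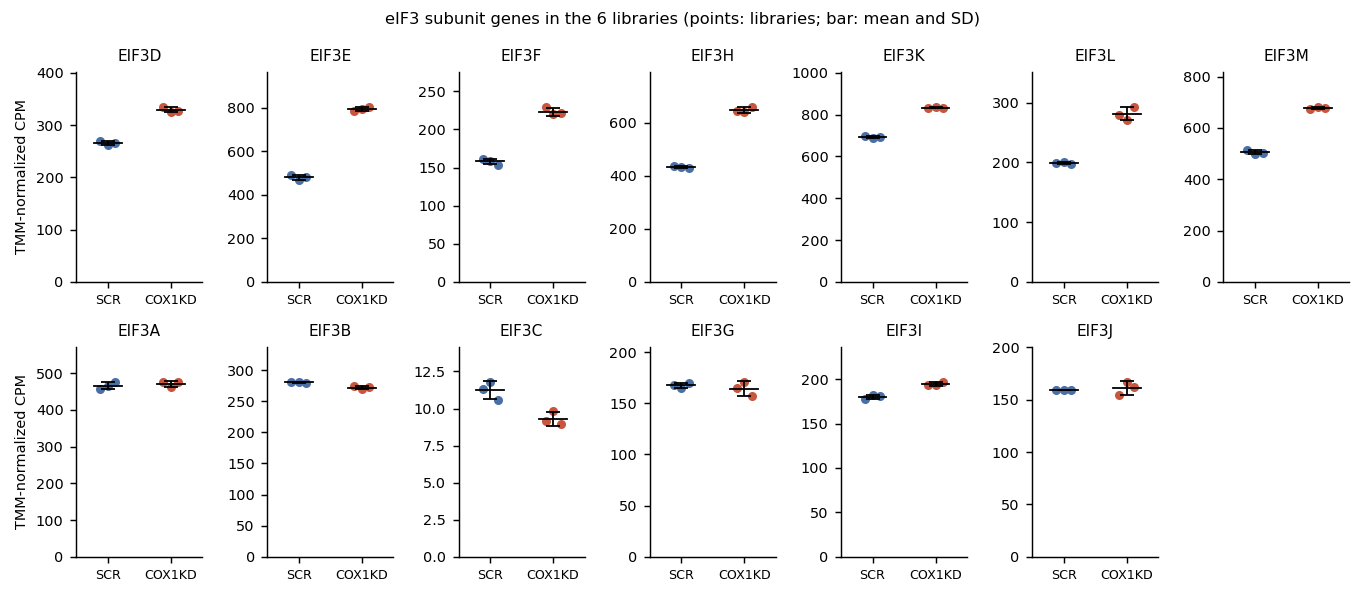
TMM-normalised CPM (vertical axes, each from 0) of the 13 tested eIF3 subunit genes in the 3 OV3/SCR and 3 OV3/COX1KD libraries, where points are libraries and bars the mean and SD. Subunits d, e, f, h, k, l and m in the upper row have no overlap between the conditions, while EIF3A, EIF3G and EIF3J in the lower row overlap.

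The elongation factor genes rose or did not pass, and none fell. EEF1A1, which encodes the main eEF1A, had 1507, 1443 and 1485 CPM in OV3/SCR and 2298, 2239.7 and 2396 CPM in OV3/COX1KD (log2 fold change 0.64 ± 0.03 SE, edgeR FDR = 5e-13). EEF1A2, the form of eEF1A normally found in muscle and neurons and described as overexpressed in ovarian tumors, had 52.1, 52.3 and 52 CPM against 77.8, 74.8 and 72.4 CPM (0.52 ± 0.039, edgeR FDR = 7.1e-10). Both forms were thus 1.56-fold and 1.44-fold higher. Per kilobase of transcript EEF1A1 stood at 421 and EEF1A2 at 29.4 CPM per kb in OV3/SCR, so the rise left EEF1A1 far more abundant.

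EEF2, the translocation factor, had 1456, 1461 and 1469.8 CPM in OV3/SCR and 1992, 1897 and 1959 CPM in OV3/COX1KD (log2 fold change 0.41 ± 0.027 SE, edgeR FDR = 1e-10). The exchange factor subunits rose less. EEF1B2, coding for eEF1Bα, went from 144 ± 1.95 to 176 ± 1.85 CPM (0.28), and EEF1D, coding for eEF1Bδ, from 605 ± 10.9 to 667 ± 22.6 CPM (0.14 ± 0.03, edgeR FDR = 0.00049). EEF1D is on chromosome 8, where its 74 tested neighbours had a median of 0.21, and its call was lost with total count scaling. EEF1E1, whose product belongs to the multi-synthetase complex, had 21.0 ± 1.13 and 21.0 ± 1.31 CPM. EEF1G held only 12 to 24 counts a library, with 99.5% of its canonical exons inside another counted gene, so nothing can be said of its level.

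Processed pseudogenes carry much of the EEF1A1 sequence. Of the 50-base stretches of the EEF1A1 transcript 37.2% occur in other annotated genes, and 24 pseudogene rows of the table summed to 1024, 985 and 998 counts in OV3/SCR and 1445, 1474 and 1579 in OV3/COX1KD. On the TMM scale these rows were 1.53-fold higher, close to the 1.56 of EEF1A1 itself. EEF2 and EEF1A2 share no such stretch with another gene. For EEF1B2 the shared part was 62.2%, for EIF5A 38.7% and for EIF4B 33.0%, and for EEF1E1, EIF2S2, EIF2S3, EIF4E and EIF6 it lay between 20.1% and 35.0%, so the assignment of part of their reads is uncertain too.

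Around the cap the genes went in different ways. EIF4B, an RNA-binding partner of the helicase and a target of S6 kinase, had 341, 336 and 344 CPM in OV3/SCR and 489, 474 and 497 CPM in OV3/COX1KD (log2 fold change 0.52 ± 0.029 SE, edgeR FDR = 9.6e-12), and EIF4H, which resembles it, rose by 0.13, a call lost with total count scaling. EIF4G2, an eIF4G relative that does not bind eIF4E and serves cap-independent initiation, went from 1784 ± 23.7 to 2142 ± 58.7 CPM (0.26 ± 0.028, edgeR FDR = 1.1e-07). The scaffold EIF4G1 had 1277, 1336 and 1314 CPM against 1249, 1157 and 1218 CPM (-0.12 ± 0.031, edgeR FDR = 0.00328), a small difference whose call was lost when OV3/SCR replicate 2 or 3 was left out. Its relative EIF4G3 had 139 ± 4.12 and 130.4 ± 4.98 CPM (-0.09) and did not pass.

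EIF4E itself, the cap-binding subunit, had 51.7, 47.4 and 49.4 CPM in OV3/SCR and 51.3, 52.8 and 51.2 CPM in OV3/COX1KD. Its log2 fold change of 0.06 had a 95% interval from -0.02 to 0.15 and did not pass the threshold, nor did those of EIF4E2 (0.04) or EIF4E3 (-0.16). The genes for the eIF4E inhibitors moved as little, EIF4EBP1 by -0.03 and EIF4EBP2 by 0.07 on the log2 scale, and the 4E transporter EIF4ENIF1 by -0.12, none of them called. Without OV3/COX1KD replicate 2, the library that stood apart, EIF4EBP2 passed as higher (log2 fold change 0.125, edgeR FDR = 0.000121). EIF4EBP3 had too few counts to be tested.

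EIF4E1B had the largest fold change. It encodes an eIF4E relative known from oocytes. It had 37, 34 and 42 counts in OV3/SCR and 138, 120 and 122 in OV3/COX1KD, which is 1.39, 1.3 and 1.62 CPM against 5.48, 4.79 and 4.58 CPM (log2 fold change 1.78 ± 0.15 SE, edgeR FDR = 5.6e-09). At 2.49 CPM per kb in OV3/COX1KD it stayed well under EIF4E at 21.3 CPM per kb. Its 39 tested neighbours within 2 Mb had a median log2 fold change of 0.03.

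The helicase gene EIF4A2 fell. It had 793, 780.1 and 786 CPM in OV3/SCR and 647, 726 and 672 CPM in OV3/COX1KD (log2 fold change -0.21 ± 0.035 SE, edgeR FDR = 4.3e-05), with no overlap between the groups. EIF4A1 was counted at 362 to 394 reads in OV3/SCR and 256 to 298 in OV3/COX1KD (-0.42 ± 0.08, edgeR FDR = 0.00019), but 99.9% of its canonical exons lie inside another counted gene. Its row may therefore hold only a small remainder of its reads, though how overlapping genes were counted is not given. Neither its level nor its change can be read as that of the EIF4A1 transcript.

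**Figure D4:**
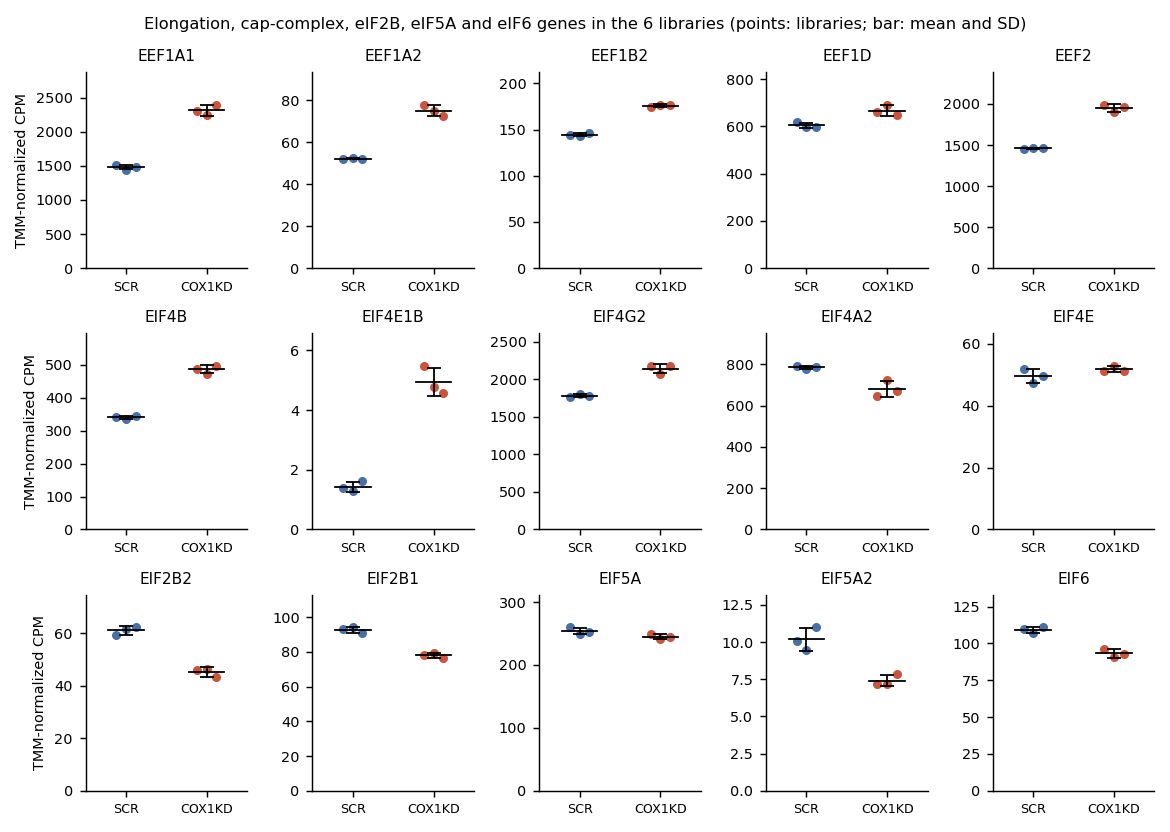
TMM-normalised CPM (vertical axes, each from 0) of elongation, cap-complex, eIF2B, eIF5A and eIF6 genes in the 3 OV3/SCR and 3 OV3/COX1KD libraries, where points are libraries and bars the mean and SD. EEF1A1, EEF1A2, EEF2, EIF4B and EIF4E1B lie higher in OV3/COX1KD, EIF2B2, EIF2B1, EIF5A2 and EIF6 lie lower, and EIF4E overlaps.

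Of the 3 tested eIF2 genes 1 rose, and of the 5 genes of its exchange factor eIF2B 3 fell and none rose. EIF2S1, the alpha subunit that stress kinases phosphorylate, had 179.8, 177 and 176 CPM in OV3/SCR and 168, 168 and 178 CPM in OV3/COX1KD (log2 fold change -0.05, not called). EIF2S3, the gamma subunit that holds the tRNA, had a log2 fold change of 0.03, not called, and EIF2S2, the beta subunit, went from 174 ± 2.81 to 193 ± 1.86 CPM (0.15 ± 0.03, edgeR FDR = 0.00022), a call lost with total count scaling. Of eIF2B, EIF2B2, a regulatory subunit, had 59.1, 61.7 and 62.2 CPM against 45.9, 46.5 and 43.2 CPM (-0.43 ± 0.043, edgeR FDR = 4e-08), and EIF2B1, also regulatory, went from 92.7 ± 1.65 to 78.0 ± 1.42 CPM (-0.25). The catalytic EIF2B5 changed by -0.17, a call lost when OV3/SCR replicate 1 or 3 was left out, and EIF2B3 and EIF2B4 stood at 0.00 and 0.02. The summed level of the 5 genes was 281, 278 and 279.9 CPM in OV3/SCR and 241, 246 and 235 CPM in OV3/COX1KD, a fold of 0.862, while that of the eIF2 genes went from 685 ± 10.7 to 705 ± 12.2 CPM.

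Among the start codon and subunit joining factors 3 of 6 tested genes fell and 1 rose. That is 66.7% called, near the 67.1% of all genes whose mean log2 CPM reached 5. EIF5, the activator of GTP hydrolysis by eIF2, had 391, 380.3 and 391 CPM in OV3/SCR and 346, 338 and 354 CPM in OV3/COX1KD (log2 fold change -0.16 ± 0.029 SE, edgeR FDR = 7.9e-05). EIF1AX, which encodes eIF1A, changed by -0.14, a call lost without OV3/SCR replicate 3, and EIF1B, a copy of EIF1, by -0.16, a call lost in 5 of 14 alternatives. EIF1, which guards start codon choice, was measured at 178 ± 6.51 and 189 ± 4.98 CPM (0.08) and the joining factor EIF5B at 225 ± 13.5 and 221 ± 13.4 CPM (-0.03), both with overlapping groups. EIF2D, which can place tRNA on the small subunit without eIF2, rose from 38.9 ± 0.0687 to 46.6 ± 1.48 CPM (0.26 ± 0.043, edgeR FDR = 3.1e-05).

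EIF5A2, a form of eIF5A often gained in ovarian tumors, had 10.1, 9.48 and 11 CPM in OV3/SCR and 7.19, 7.18 and 7.84 CPM in OV3/COX1KD (log2 fold change -0.46 ± 0.089 SE, edgeR FDR = 0.00018), whereas the widely expressed EIF5A had 260, 250 and 253 CPM against 249.5, 241 and 244 CPM (-0.05, not called). EIF6, which keeps the large subunit apart from the small one and takes part in its biogenesis, went from 109 ± 2.04 to 93.2 ± 2.98 CPM (-0.23 ± 0.035, edgeR FDR = 1.2e-05). Among the genes with another function EIF2C3 (AGO3) changed by -0.46 and EIF1AD by -0.27, while EIF2C1, EIF2C2, EIF2C4, EIF4A3 and EIF2A did not pass the threshold. EIF2C2 had 1094 and 1113 counts in OV3/COX1KD replicates 1 and 3 and 787 in replicate 2, the library that stood apart. Without that library its difference changed sign and still did not pass, and EIF2C1 passed as higher (edgeR FDR = 0.00111). The 5 genes under the filter on low counts were EIF2S3L, EIF1AY, EIF3CL, EIF1AX-AS1 and EIF2B5-AS1.

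Several factors are made from paired genes, and the log2 ratio of the paired genes within a library does not depend on scaling. In 4 of 7 pairs the ratio was apart between the conditions in all libraries. The levels of single genes were apart in 63.2% of all genes tested, and ratios of other gene pairs were not counted, so this number is not unusual by itself. The ratio of EIF5A to EIF5A2 was 4.64 ± 0.11 in OV3/SCR and 5.05 ± 0.082 in OV3/COX1KD (log2, SD, n = 3), a difference of 0.41. That of EIF1 to EIF1B differed by 0.24, EEF1A1 to EEF1A2 by 0.12 and EIF4A1 to EIF4A2 by -0.21, the last with the limit on EIF4A1 counts. Each of these had p = 0.1 in a two-sided exact permutation test, the smallest that 3 against 3 libraries can give, and an adjusted p of 0.175 over the 7 pairs, so this test could not pass 0.05. The ratios of EIF4G1 to EIF4G3 (-0.02), EIF4E to EIF4E2 (0.03) and EIF4EBP1 to EIF4EBP2 (-0.10) overlapped between the conditions.

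**Figure D5:**
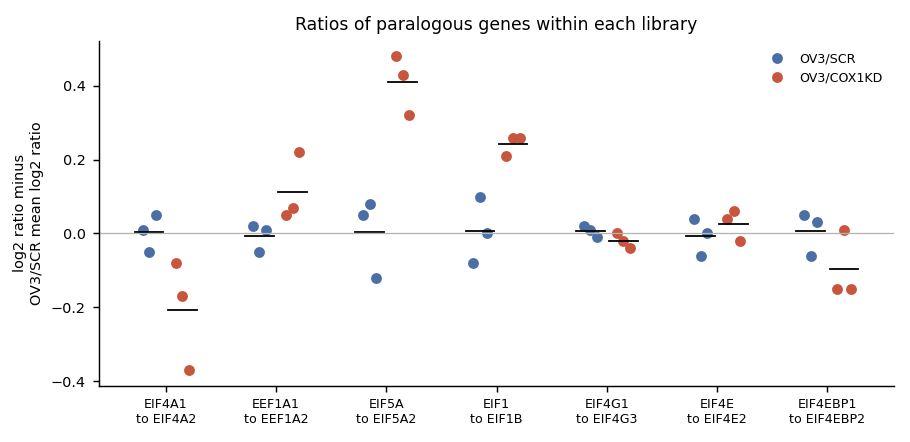
Log2 ratio of paired genes in each library (vertical axis, shown as the difference from the OV3/SCR mean) for 7 pairs, where points are libraries and lines the condition means. The ratios of EIF5A to EIF5A2 and of EIF1 to EIF1B lie higher in all 3 OV3/COX1KD libraries, and EIF4E to EIF4E2 overlaps.

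The genes that control these factors were read from lists. Over all genes tested 47.9% were called, 25.8% higher and 22.1% lower, and 67.1% of those whose mean log2 CPM reached 5. Shares called in the lists ran from 11.1% (mitochondrial translation factors) to 80% (poly(A) and helicase partners). List counts near the shares over all genes were general in this comparison, and no list was tested as a set. Calls over all the lists together numbered 44, and from 34 to 46 in the alternatives, so single calls near the threshold are not firm. Of 8 genes of eIF2 and eEF2 phosphorylation 2 rose and 4 fell. EIF2AK1, the heme-regulated eIF2 kinase, had 7049, 6895 and 6649 counts in OV3/SCR and 8787, 8866 and 9428 in OV3/COX1KD (log2 fold change 0.43 ± 0.028 SE, edgeR FDR = 1.2e-10), and EIF2AK4, the amino acid sensor GCN2, rose by 0.36. PPP1R15A, the stress-induced subunit of the eIF2 phosphatase, had 645, 683 and 710 counts against 440, 504 and 481 (-0.48 ± 0.065, edgeR FDR = 2.6e-06). EIF2AK3, the endoplasmic reticulum kinase PERK, changed by -0.43, ATF4, the transcription factor translated when eIF2 is phosphorylated, by -0.40 and PPP1R15B by -0.16. EIF2AK2 and EEF2K did not pass. Phosphorylation of eIF2 was not measured here.

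Among 15 genes of mTOR and MNK control 4 rose and 4 fell. DEPTOR, an inhibitor of mTOR, had 173, 181 and 141 counts in OV3/SCR and 537, 500 and 542 in OV3/COX1KD (log2 fold change 1.70 ± 0.082 SE, edgeR FDR = 8.6e-13). MKNK2, a kinase of eIF4E, had 6260, 6229 and 6064 counts against 3871, 3653 and 3972 (-0.66 ± 0.031, edgeR FDR = 6.2e-13). PDCD4, an inhibitor of eIF4A, rose by 0.22, MLST8 by 0.26 and RPS6 by 0.28, and AKT1S1, RPS6KB2 and TSC2 changed by -0.22, -0.22 and -0.18. MTOR, RPTOR, RHEB, TSC1, RPS6KB1, LARP1 and MKNK1 were not called.

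Of 10 poly(A) and helicase partners 7 rose and 1 fell. PAIP2B, an inhibitor of poly(A)-binding protein, had the largest rise (log2 fold change 0.74 ± 0.077 SE, edgeR FDR = 8.4e-08) and GIGYF1, a partner of EIF4E2, the fall (-0.31). PABPC1, the main poly(A)-binding protein, rose by 0.64, PAIP1 by 0.44 and PAIP2 by 0.19, genes named after their values were seen. The 22 cytosolic tRNA synthetase genes had 6 higher and 8 lower calls, from HARS at -0.38 to IARS at 0.36. Of 9 enzymes that make hypusine on eIF5A or diphthamide on eEF2, DPH5 rose (0.43) and 3 fell, the most DOHH (-0.37), the last enzyme of hypusine synthesis. Of 7 termination and recycling genes 2 rose and 1 fell, within -0.20 to 0.16. The mitochondrial translation factors had 1 call among 9, MTIF2 at 0.12. The median log2 fold changes of these 7 lists lay between -0.13 and 0.15, against -0.01 for all genes tested.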

How the data were processed

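The authors sequenced TruSeq libraries on an Illumina HiSeq, aligned the reads to hg19 with TopHat2 (version 2.0 per the submitters' processing notes) and used HTSeq to count them on genes. The deposited values are these raw counts, not normalized. The annotation and strand setting of the counting are not given in the sources used here, and the kit does not mark strand, so reads of overlapping genes cannot be told apart.

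Counts were scaled by TMM (factors 0.97 to 1.04), filtered by filterByExpr and compared with edgeR 4.0.16 in R 4.3.3 (glmQLFit and glmQLFTest, condition as the only factor). Adjusted p-values (FDR) are Benjamini-Hochberg over all 17309 genes tested, and a gene was called at an FDR under 0.01. The SE is the log2 fold change over the square root of F. The biological coefficient of variation was 3.21%. Depth (over 25291505 counts a library) limits only genes of few counts, and the floor of 3 counts covers counting error, since PCR copies are not independent molecules.

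Genes named are those beyond a log2 fold change of 0.5, the largest called rise and fall of each role or list, the paired genes and a set of central factors, with others given for completeness of their complex. The members and lists were chosen with earlier results of these data known. Gene positions and transcripts were read from GENCODE 44 lifted to GRCh37 (33556 of 34811 genes matched) and start sequences from RefSeq. The alternatives were RLE factors, total count scaling, other filters, DESeq2 1.42.0, the replicate number as a block and leaving out each library. Offsets for GC content and length (16800 genes) were added after seeing the data.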

Additional observations from a re-analysis of the deposited data

How the results depend on the processing

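Of the 33 called translation factor genes 24 kept their call and direction in all 14 alternatives and 0 reversed. The number called lay between 28 and 35, and leaving out each library in turn gave 28 to 34. Calls lost in some alternatives were those of EIF3I, EEF1D, EIF4H, EIF2S2, EIF1B, EIF4G1, EIF2B5, EIF1AX and EIF3C. Calls were also gained. EIF5A, EIF2S1, EIF4G3, EIF3B, EIF4ENIF1 and EIF2C4 passed as lower with total count scaling, and EIF2C1 as higher without OV3/COX1KD replicate 2. With offsets for GC content and length EIF2S1, EIF4G3 and EIF2C4 passed too, and EIF2C4 also with RLE factors and with at least 10 counts in every library. The median log2 fold change of the tested genes, 0.016, was -0.062 with total count scaling, 0.038 with no filter, -0.001 with at least 10 counts in every library, -0.034 with offsets for GC content and length and -0.034 with these offsets and the replicate block. It ranged from 0.012 to 0.029 when each library was left out, 0.029 being the value without OV3/COX1KD replicate 2. The cause was not tested.

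The same-numbered libraries did not deviate together (r of 0.00447, 0.0424 and 0.00896 across genes). The growth protocol speaks of pairs but does not say that the replicate numbers mark them, so the number was taken as a block only as an alternative. With the replicate block 33 genes were called, 19 higher and 14 lower, and 8233 genes in all against 8293. Counts of EIF4A1, EEF1G and EIF3C are limited most by overlap or shared sequence with other genes. Those of EEF1B2, EIF3L, EIF5A, EEF1A1 and EIF4B, among others named above, are uncertain in part. Of the canonical exons of EIF6 26.6% overlap another counted gene, and of those of EIF2B1 22.4%.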
